A study of Mus musculus with 28 samples.

Results

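GABA-A receptors are ligand-gated chloride channels that bind the transmitter GABA, and the genes described here are 7 of their subunits: the alpha subunits Gabra2, Gabra3 and Gabra5, the beta subunits Gabrb1 and Gabrb2, and the gamma subunits Gabrg1 and Gabrg3. They were taken by gene symbol from 45952 genes listed in each of 2 tables of expression values, and all 7 were found in both. Another 12 genes of the family were listed in the tables and are given below as counts only.

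The first table holds naïve sensory neurons of AdvGFP mice (STOCK Tg(Avil-EGFP)QD84Gsat/Mmucd), aged 3 to 6 months, whose sensory neurons express green fluorescent protein under the control of the advillin promoter. These cells were purified by fluorescence-activated sorting (FACS) into 11 male and 11 female libraries, from lumbar or, for some replicates, trigeminal ganglia. The second table holds neurons of C57BL/6J mice, aged 6 weeks to 7 months, taken on day 8 after partial ligation of the sciatic nerve (SNL). They came from lumbar dorsal root ganglia (DRG) on the injured side and were purified with magnetic beads (MACS), which kept mostly small-diameter neurons, into 3 male and 3 female libraries. Females of this experiment were staged for estrus and naïve females were not, and each library of either experiment pooled 2 mice. The labels name satellite glial cells as a contaminant of the naïve libraries and erythrocytes as a contaminant after SNL. Injury, strain, purification method and normalization all differ between the tables, so their parts in a difference cannot be told apart and no test was run between them.

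An alpha, a beta and a gamma subunit are the usual building blocks of the receptor. GABA binds where a beta subunit meets an alpha subunit, and benzodiazepines bind where an alpha subunit meets a gamma subunit. Primary sensory neurons carry these receptors on their cell bodies and on their central terminals, where GABA from spinal interneurons depolarizes the terminal and lowers transmitter release. In bulk libraries such as these, a lower level can mean less RNA per cell or fewer cells that carry it, and the alternatives cannot be told apart.

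Of the 7 genes, 3 lie in a cluster on chromosome 5 of mm10: Gabrg1 at 70751047 to 70842617 and Gabra2 at 70957597 to 71095849 on the minus strand, and Gabrb1 at 71658113 to 72149037 on the plus strand, with other genes between Gabra2 and Gabrb1. Gabrg3 (56716465 to 57387188) and Gabra5 (57407672 to 57510059) are neighbours on the minus strand of chromosome 7. Gabrb2 is on the plus strand of chromosome 11 (42419757 to 42629028) and Gabra3 on the minus strand of the X chromosome (72432681 to 72656848). All are protein-coding genes in the GENCODE annotation used for these positions. Reads were not stranded, and 148 of the 2974 exonic bases of Gabra5 (4.98%) and 46 of the 13838 of Gabrb1 (0.332%) overlap exons of other genes, so reads there cannot be assigned with certainty. The other members had no such overlap.

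Promoter sequence was available for all 7 members, in 11 entries from RefSeq (GRCm38.p6, the build that mm10 names), each holding the 250 bases before a transcription start. Those of Gabra2, Gabrg1 and Gabra3 are printed because the first was the most abundant and steadiest of the 7, and the others had the steepest slopes on the markers of large-diameter neurons described further on. They read from 5′ to 3′ towards the start, on the minus strand at chr5:71095850-71096099, chr5:70842618-70842867 and chrX:72656808-72657057. Capitals mark matches on either strand to short forms of known elements: the TATA box (TATAAA), the CCAAT box (CCAAT), the GC box (GGGCGG), the cyclic AMP response element (TGACGTCA), an E-box (CATCTG) and the homeodomain core (TAATTA).
Gabra2: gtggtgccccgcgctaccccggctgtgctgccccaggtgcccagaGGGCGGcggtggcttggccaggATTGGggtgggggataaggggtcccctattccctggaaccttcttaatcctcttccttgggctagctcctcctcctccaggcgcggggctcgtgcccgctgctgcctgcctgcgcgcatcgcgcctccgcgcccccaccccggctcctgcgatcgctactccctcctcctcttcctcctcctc
Gabrg1: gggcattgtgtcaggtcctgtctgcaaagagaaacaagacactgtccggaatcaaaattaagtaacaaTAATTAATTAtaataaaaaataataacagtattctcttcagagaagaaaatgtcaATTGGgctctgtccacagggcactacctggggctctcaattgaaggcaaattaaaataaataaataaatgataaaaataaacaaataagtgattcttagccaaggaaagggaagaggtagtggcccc
Gabra3: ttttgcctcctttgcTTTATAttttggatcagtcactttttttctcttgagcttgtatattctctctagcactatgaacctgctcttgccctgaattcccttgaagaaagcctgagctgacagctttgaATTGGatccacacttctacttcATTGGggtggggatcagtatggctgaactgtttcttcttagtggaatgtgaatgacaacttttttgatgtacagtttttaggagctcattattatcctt

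The promoter of Gabra2 was 70.0% G and C and held 18 CpG dinucleotides. That of its neighbour Gabrg1 was 35.6% G and C with 1 CpG, and that of Gabra3 was 39.2% with none (0 CpG). The median over 32851 promoters of the same length was 52.4% with 6 CpG. Of the motifs, the Gabra2 window held a GC box, present in 32.7% of all promoters, and a CCAAT box on the opposite strand, present in 33.8%. The Gabrg1 window held a pair of TAATTA matches that overlap each other, a motif present in 4.84% of all promoters, and a CCAAT box on the opposite strand. The Gabra3 window held a TATAAA match, present in 12.4%, and a pair of CCAAT boxes, all on the opposite strand. This TATAAA match lay 235 bases before the start. Another Gabra3 entry, not printed, was 42.4% G and C, with 1 TATAAA match and 1 CCAAT box. No TGACGTCA match (1.55% of all promoters) and no CATCTG match (14.4%) lies in the 3 windows. A match describes the letters only and is not evidence that a factor binds there.

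Levels are given as FPKM, a count of fragments scaled by transcript length and by the mapped reads of the library, which allows genes of different length to be set side by side. Libraries had 24800048 to 50649730 input reads. A value of 0 is written as listed at 0, since 5.61% of tested genes with a mean normalized count of at least 100 in the authors' naïve table, and 2.76% after SNL, were listed at 0 FPKM in at least 1 library. A gene was tested when it reached an FPKM of 1 in 3 libraries or more of 1 sex among the naïve libraries (12893 genes), or in 2 or more after SNL (11303 genes). Of the 7 subunits, 6 passed in naïve neurons (all but Gabrg3) and 3 after SNL (Gabra2, Gabra3 and Gabrb1).

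Of 7 sensory neuron markers, 6 were listed, and their summed FPKM was 3873 to 5520 in naïve libraries and 4091 to 5521 after SNL. The sum of 8 satellite glia markers was 1244 to 6542 in naïve libraries and 39.3 to 75.6 after SNL. Most of the sum after SNL was Glul, with a mean of 55.3 FPKM against 32.0 in naïve libraries. The next highest mean after SNL was that of Apoe, 1.66 FPKM against 2876 in naïve libraries. The sum of 5 erythroid markers was 0.369 to 71.6 in naïve libraries and 561 to 18891 after SNL. The sum of 6 large-diameter neuron markers (Nefh, Ntrk2, Ntrk3, Pvalb, Spp1 and Runx3) was 45.6 to 935 in naïve libraries and 40.4 to 85.5 after SNL. In 4 naïve libraries (male replicates 2 and 10, female replicates 2 and 11) the mean FPKM of 15 trunk Hox genes was 0.0253 to 0.0522, against 7.24 to 12.7 in the others. These genes mark the position of a neuron along the trunk. The sources used here do not name the ganglion of each library.

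Gabra2 was by far the most abundant of the 7 in naïve neurons. Its FPKM in male replicates 1 to 11 was 30.4, 25.6, 25.7, 24.5, 29.5, 21.2, 18.5, 14.1, 18.1, 20.6 and 8.23. In female replicates 1 to 11 it was 18.8, 27.8, 17.9, 25.0, 18.9, 30.1, 21.8, 14.8, 23.5, 25.7 and 23.5. The ranges of the sexes overlapped over most of their length, and male replicate 11 was the lowest library. The mean was 22.01 ± 5.59 (SD, n = 22), above 73.1% of the tested genes. Its coefficient of variation was 25.4%, below the median of 41.8% over all tested genes.

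Gabra3, an alpha subunit also found in brainstem and spinal neurons, was next, at 4.80 ± 3.46 FPKM (SD, n = 22). It ran from 0.296 to 9.34 in males (median 3.57) and from 0.598 to 12.3 in females (median 6.48). Low and high libraries were found in both sexes. The lowest were male replicate 8 (0.296), male replicate 4 (0.527) and female replicate 7 (0.598), and the highest was female replicate 11 (12.3). Gabra5, whose receptors in the brain lie mostly outside synapses, had 1.40 ± 1.40 FPKM, with 0 to 4.41 in males (median 0.505) and 0 to 3.67 in females (median 1.03). It was listed at 0 in male replicates 4 and 9 and in female replicate 10.

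The beta subunits, which contribute to the GABA binding site, had lower means than Gabra2 and Gabra3, while that of Gabrb1 was above that of Gabra5. Gabrb1 had 2.03 ± 1.82 FPKM (SD, n = 22), with 0 to 6.43 in males (median 2.76) and 0.259 to 4.60 in females (median 1.28). Male libraries fell far apart, since male replicates 3, 5, 8 and 9 had 0, 0.0621, 0.00303 and 0.0982 while male replicate 7 had 6.43. Gabrb2 had 0.940 ± 1.23 FPKM, with 0 to 1.48 in males (median 0.266) and 0 to 4.63 in females (median 0.966). It reached an FPKM of 1 in 1 male library and in 5 female libraries.

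Of the gamma subunits, which are needed for benzodiazepine binding, Gabrg1 had 2.26 ± 1.96 FPKM (SD, n = 22). In male replicates 1 to 11 it had 1.20, 3.86, 0.0139, 1.69, 0, 2.81, 0.0379, 0.161, 0.231, 2.33 and 1.42. In female replicates 1 to 11 it had 3.41, 5.94, 0.362, 4.40, 1.12, 1.56, 6.87, 1.47, 4.10, 3.42 and 3.23. Most female libraries lay above most male libraries, with overlap, and 6 male and 10 female libraries reached an FPKM of 1. Gabrg3 stayed below an FPKM of 1 in all 22 libraries, with a highest value of 0.882 in female replicate 9, and was listed at 0 in 6.

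**Figure D1:**
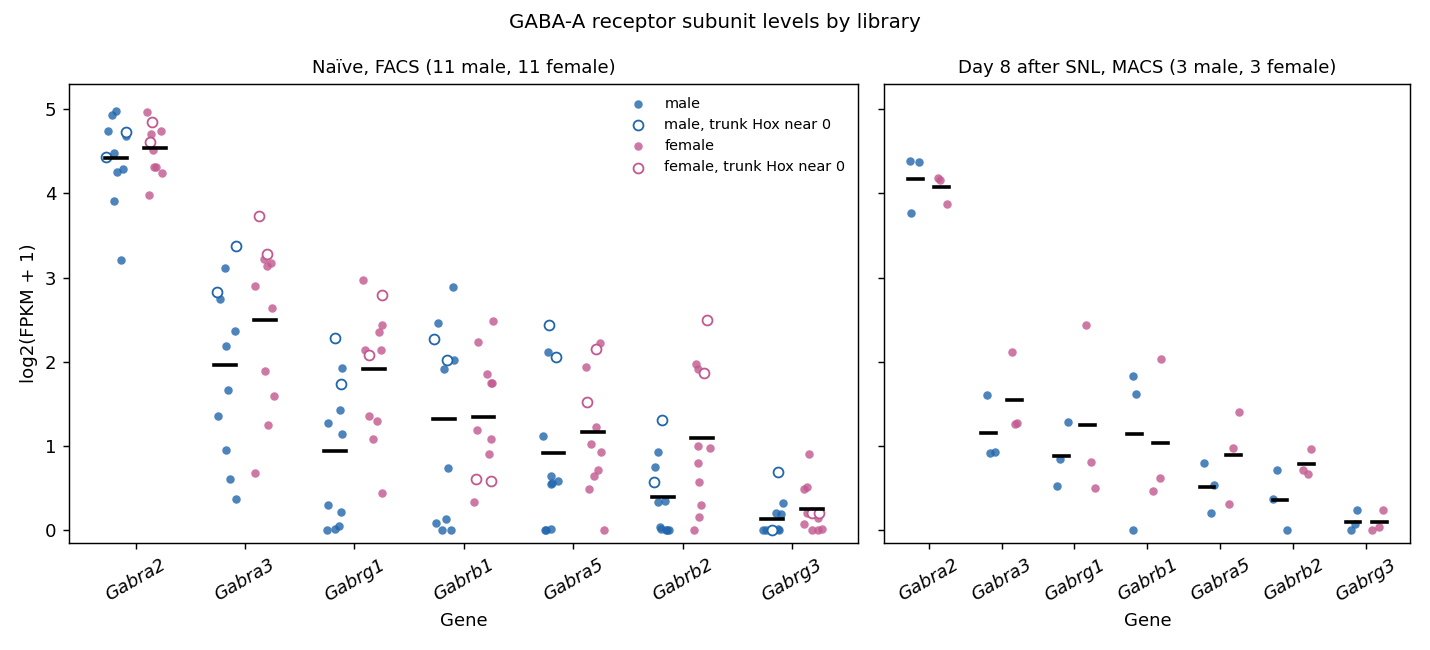
Level of each subunit in log2(FPKM + 1), with naïve libraries (11 male, 11 female) at left and libraries of day 8 after SNL (3 male, 3 female) at right. Points are libraries, bars are group means, and open circles are the 4 naïve libraries with trunk Hox genes near 0. Gabra2 lies above the other subunits in every library, and Gabrg1 and Gabrb2 show the lowest male values relative to female values in naïve neurons.

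By mean level the order in naïve neurons was Gabra2, Gabra3, Gabrg1, Gabrb1, Gabra5, Gabrb2 and Gabrg3. Each of the 6 neighbouring pairs was compared within libraries by a permutation test that flips signs (100000 resamples, two-sided), on log2(FPKM + 1), with Benjamini-Hochberg adjustment over the pairs. Gabra2 exceeded Gabra3 in 22 of 22 libraries, by 2.24 on the log2 scale (adjusted p = 6.0e-05 from a p of 1.0e-05, the smallest the resamples can give). Gabra3 exceeded Gabrg1 in 19 of 22, by 0.80 (adjusted p = 0.00386), and Gabrb2 exceeded Gabrg3 in 15 of 22, by 0.55 (adjusted p = 0.00099).

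The 3 pairs between them did not pass. Gabrg1 and Gabrb1 differed by 0.10 ± 1.17 on the log2 scale (SD, n = 22; adjusted p = 0.703), Gabrb1 and Gabra5 by 0.29 ± 1.09 (adjusted p = 0.267), and Gabra5 and Gabrb2 by 0.30 ± 0.895 (adjusted p = 0.199). Neighbours among these 4 genes thus did not differ beyond their spread. In female libraries alone Gabra3 and Gabrg1 differed by 0.58 (adjusted p = 0.223), and in male libraries alone Gabrb2 and Gabrg3 differed by 0.26 (adjusted p = 0.0880).

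Of the FPKM summed over the 7 genes, Gabra2 made up a mean of 67.9%, from 51.0% in female replicate 1 to 93.7% in male replicate 8. Gabra3 made up 12.9% (1.76% to 27.8%), Gabrg1 6.29% (0% to 20.2%) and Gabrb1 6.09% (0% to 21.4%). The sum itself ran from 13.3 FPKM in male replicate 11 to 51.2 in female replicate 2. The share outside Gabra2 was thus very unequal between libraries.

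**Figure D2:**
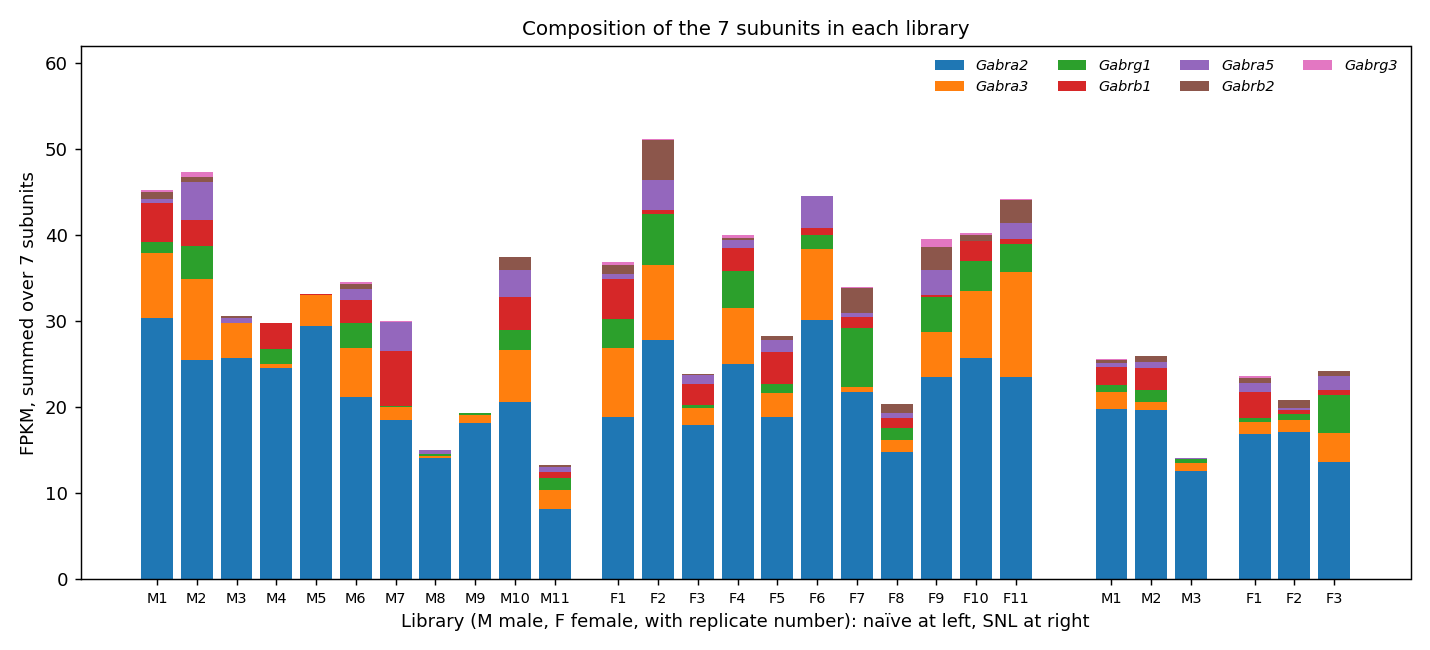
FPKM of the 7 subunits stacked for each library, naïve at left and SNL at right (M male, F female, with the replicate number). Gabra2 is the largest piece of every bar, from 51.0% to 93.7% of the sum in naïve libraries and from 56.4% to 89.4% after SNL.

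After SNL the alpha subunit Gabra2 again stood well above the others. For replicates 1, 2 and 3, its FPKM was 19.8, 19.7 and 12.6 in males and 16.9, 17.1 and 13.7 in females. Male and female libraries overlapped, and the lowest of the 6 was higher than the highest value of any other member. Its mean of 16.6 ± 2.98 (SD, n = 6) was above 62.7% of the tested genes, and it made up 75.4% of the FPKM summed over the 7 subunits.

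Gabra3 had 2.05, 0.913 and 0.898 FPKM in males and 1.43, 1.40 and 3.34 in females after SNL, with a mean of 1.67 ± 0.920 (SD, n = 6). Gabra5 had 0.456, 0.739 and 0.159 in males and 0.967, 0.240 and 1.64 in females. The sexes overlapped for both genes, and female replicate 3 was the highest library for each.

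The beta subunit Gabrb1 had 2.08, 2.55 and 0 FPKM in males and 3.10, 0.385 and 0.538 in females after SNL. Gabrb2 had 0.295, 0.647 and 0 in males and 0.650, 0.958 and 0.587 in females, below 1 in all 6 libraries. Male replicate 3 was listed at 0 for both, and it also had the lowest RNA integrity number (RIN) of the 6 libraries (5.8, against 7.4 to 9.1), whose part in these zeros was not tested.

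The gamma subunit Gabrg1 had 0.794, 1.43 and 0.442 FPKM in males and 0.418, 0.761 and 4.42 in females. The highest value came from female replicate 3, and the other 5 libraries lay within 0.418 and 1.43. Gabrg3 did not exceed 0.184. Below Gabra2, every neighbouring pair in the SNL order (Gabra3, Gabrb1, Gabrg1, Gabra5, Gabrb2 and Gabrg3) overlapped in range.

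The mean normalized counts in the authors' tables, which pool the libraries of an experiment and were made from read counts rather than FPKM, also had Gabra2 first, at 1150 in naïve neurons and 2255 after SNL. Gabra3 followed in naïve neurons with 182, against 153 after SNL, and Gabrg1 had 103 and 170. Gabrb1 had 45.2 and 153, so its count after SNL was close to those of Gabra3 and Gabrg1. Gabra5 (41.9 and 47.6), Gabrb2 (32.2 and 36.9) and Gabrg3 (12.02 and 12.3) were the lowest in both. Counts were not scaled by gene length, and the tables were normalized separately.

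For the sexes, limma was run on log2(FPKM + 1) with adjustment by Benjamini-Hochberg over all tested genes, and each fold change is the male mean minus the female mean on this log scale, where changes of low genes are understated. No subunit passed an adjusted p of 0.05 in naïve neurons (0 of 6), where 0.0543% of all tested genes did. Gabrb2 entered the test only through female libraries, in which it is high, so the filter favoured a difference and it is left out of the counts that follow. Of the other 5, Gabrg1 alone had an unadjusted p under 0.05, against 8.29% of all tested genes. All 5 had a lower fitted mean in males, and the middle one was Gabra5 with a log2 fold change of -0.25. Over all tested genes the median was -0.070 and 61.0% were lower in males, or 49.7% with quantile normalization, under which Gabrb1 turned to 0.13. Nothing particular to the subunits follows from these counts.

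Gabrg1 had 1.25 ± 1.32 FPKM (SD, n = 11) in males and 3.26 ± 2.03 in females. Its log2 fold change was -0.98 (standard error 0.328, 95% interval -1.65 to -0.30; limma, unadjusted p = 0.00642, adjusted p = 0.595). Its adjusted p lay between 0.360 and 0.810 over 32 alternatives, and with a pseudocount of 0.1 its fold change was -1.98 (adjusted p = 0.606). The markers of large-diameter neurons had lower fitted means in males too (6 of 6, median log2 fold change -0.29), as did 6 of 8 satellite glia markers (median -0.22). So did 4 of 5 Schwann cell markers (median -0.41) and 5 of 8 small-diameter nociceptor markers (median -0.12). Of the sensory neuron markers, 2 of 6 were lower (median 0.11), and of all tested genes 61.0% were. With a score of the large-diameter markers as a covariate the fold change of Gabrg1 was -0.72, and with a satellite glia score it was -0.73.

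Gabrb2 had 0.375 ± 0.480 FPKM (SD, n = 11) in males and 1.505 ± 1.51 in females. Its log2 fold change was -0.71 (standard error 0.276, interval -1.27 to -0.14; limma, adjusted p = 0.595), and -1.67 with a pseudocount of 0.1. Since it reached the filter through the female libraries only, this difference is a description. Gabra3, the X-linked member, had 3.82 ± 3.05 in males and 5.78 ± 3.71 in females, a log2 fold change of -0.54 (interval -1.36 to 0.29; adjusted p = 0.686). With RIN as a covariate it was -0.22. The log2 fold changes of Gabra5 (-0.25, interval -0.92 to 0.42), Gabra2 (-0.11, interval -0.48 to 0.25) and Gabrb1 (-0.023, interval -0.80 to 0.75) had adjusted p-values from 0.820 to 0.989. The interval of Gabra2 was the narrowest of the 6, and those of Gabra5 and Gabrb1 still allow sizeable differences in either direction.

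After SNL no subunit passed either (0 of 3 by limma, none at an unadjusted p under 0.05), where 0.0442% of all tested genes passed the adjusted threshold and 3.69% the unadjusted one. Gabra3 reached the filter through female libraries only, and Gabrb1 through male libraries only. The log2 fold change of Gabra2 was 0.10 (95% interval -0.49 to 0.69; limma adjusted p = 0.971). That of Gabra3 was -0.40 (interval -1.24 to 0.45; adjusted p = 0.945), and that of Gabrb1 was 0.11 (interval -1.24 to 1.45; adjusted p = 0.986). In a fit with no expression filter, Gabra5 had -0.38, Gabrb2 -0.42, Gabrg1 -0.37 and Gabrg3 0.0093, with intervals that all include 0. With 3 libraries per sex these intervals were wide for every member except Gabrg3. At no more than 0.184 FPKM, the values of Gabrg3 lie near 0 on this log scale, so its narrow interval says little about a difference. Whether a sex difference in naïve neurons differed from that after SNL was not tested.

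**Figure D3:**
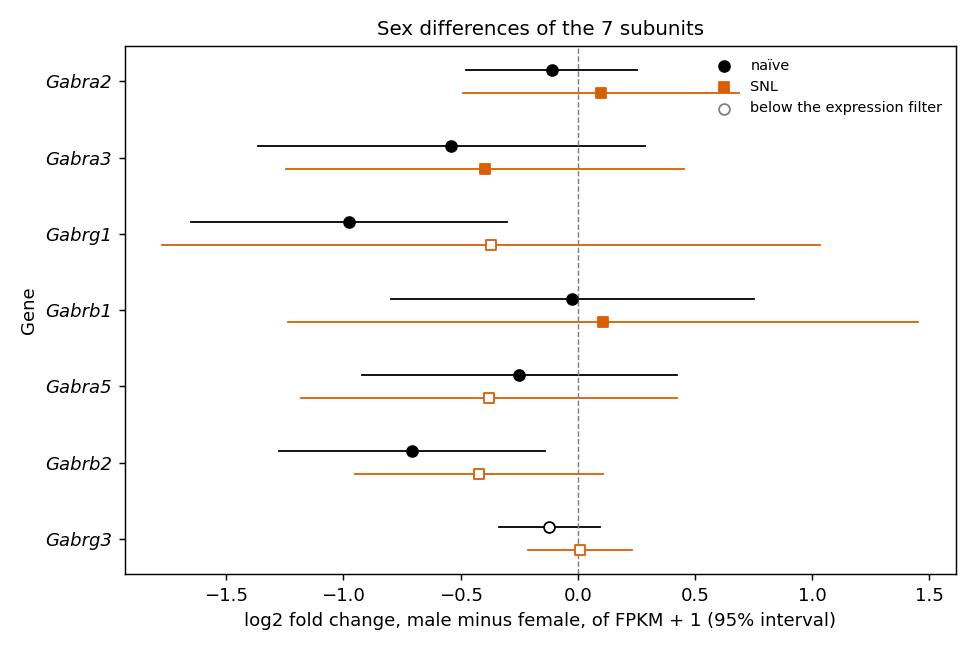
log2 fold change, male minus female, of each subunit on the scale of FPKM + 1, with 95% intervals from limma, in naïve neurons (black circles) and after SNL (orange squares). Open symbols are genes below the expression filter, from a fit without it. The naïve intervals of Gabrg1 (-1.65 to -0.30) and Gabrb2 (-1.27 to -0.14) lie below 0 before adjustment, and all others include 0. In naïve neurons Gabrb2 reached the filter through female libraries only.

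Naïve libraries differed in RNA integrity and in their makeup of cells, so each subunit was also fitted against these measures with limma, with sex as a covariate and adjustment over all tested genes. A score is the mean log2(FPKM + 1) of a marker list, taken from the same libraries, so that its slope describes which genes move with the markers. The RIN was 5.2 to 9.9 in the 21 libraries that have one. None of the subunits passed for RIN (0 of 6 by limma, none at an unadjusted p under 0.05, against 0.0698% and 13.1% of all tested genes), with slopes from -0.21 per RIN unit for Gabra5 to 0.14 for Gabra3. For satellite glia, which wrap the cell bodies of sensory neurons, none passed either (0 of 6 by limma, none at an unadjusted p under 0.05, against 0.512% and 10.1%). Gabrg1 had the highest slope, 0.91 (unadjusted p = 0.0511, adjusted p = 0.495).

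Gabrg1 rose with the large-diameter neuron score, whose markers belong to touch-sensing and muscle-sensing neurons. The score was 1.95 in male replicate 7 and 2.13 in male replicate 5, where Gabrg1 was at 0.0379 FPKM and listed at 0. Female replicate 3 also had a low score (2.13), with 0.362 FPKM of Gabrg1, and male replicate 4 (2.67) had 1.69 FPKM. The score was 4.34 in female replicate 7 and 4.33 in female replicate 2, where Gabrg1 reached 6.87 and 5.94. The library with the highest score, male replicate 11 (5.39), had 1.42 FPKM. The slope was 0.57 in log2(FPKM + 1) per unit of score (standard error 0.131, 95% interval 0.30 to 0.84; limma adjusted p = 0.0107). Gabrg1 was 1 of 6 subunits to pass, against 6.19% of all tested genes, 3.92% in this direction. The call held without each library in turn, at a largest adjusted p of 0.0492. It was lost without male replicates 5 and 7, the 2 libraries farthest from the median score (slope 0.55, adjusted p = 0.0579), and without the 4 libraries with trunk Hox genes near 0 (slope 0.48, adjusted p = 0.0636). With a pseudocount of 0.1 the slope was 1.24 (adjusted p = 0.00325).

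Markers of other cells moved with this score too. All 8 satellite glia markers had a positive slope, with a median of 0.19, and 1 passed (Fabp7, 0.33, limma adjusted p = 0.0383). The single erythroid marker tested, Hba-a1, passed upwards (0.80, adjusted p = 0.00326). All 7 nerve injury genes had a negative slope, with a median of -0.29, and 1 passed (Gal, -1.19, adjusted p = 0.0296). The part of these cells in the slope of Gabrg1 was not tested.

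The other subunits did not pass against that score. Gabra3 had a slope of 0.50 (interval 0.11 to 0.88; limma adjusted p = 0.116), Gabrb2 of 0.20, Gabrb1 of 0.15 and Gabra5 of 0.14. Gabra2 had a slope of -0.012 (interval -0.21 to 0.18; adjusted p = 0.963), but this rests on male replicate 11, which had the highest score and, at 8.23 FPKM, the lowest Gabra2. Without that library the slope of Gabra2 was 0.14 (adjusted p = 0.359). No test compared the slopes of different subunits with each other.

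**Figure D4:**
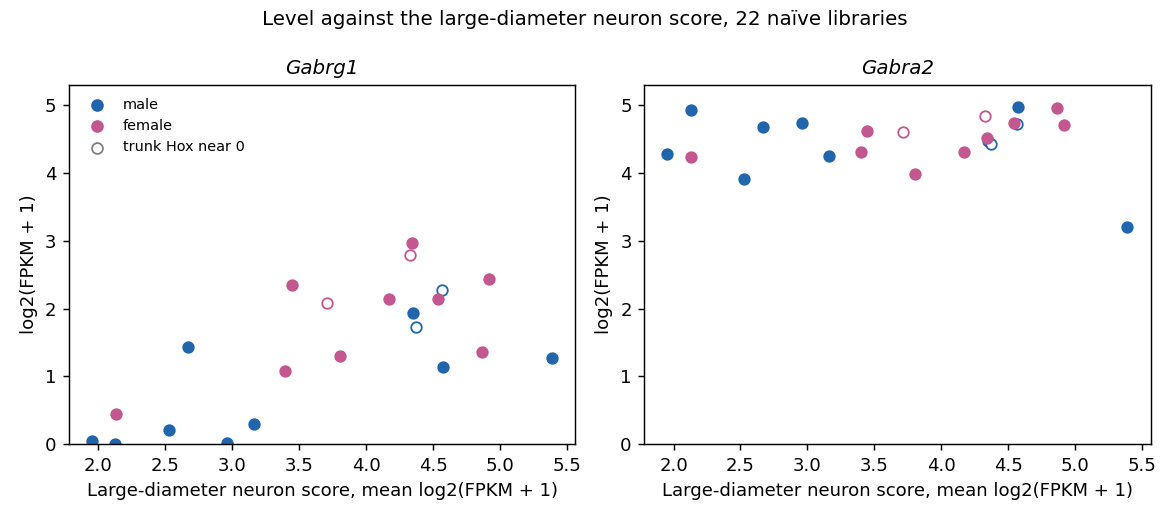
Level in log2(FPKM + 1) of Gabrg1 (left) and Gabra2 (right) against the large-diameter neuron score, the mean log2(FPKM + 1) of 6 markers, in 22 naïve libraries. Points are libraries, and open circles mark the 4 with trunk Hox genes near 0. Gabrg1 is near 0 in most libraries of low score (slope 0.57), and the slope of Gabra2 was -0.012, or 0.14 without male replicate 11, the point of highest score and lowest Gabra2.

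Against the score of 8 small-diameter nociceptor markers (among them Calca, Scn10a and Mrgprd), Gabrg1 fell, with a slope of -0.95 (standard error 0.312, interval -1.60 to -0.31; limma adjusted p = 0.0453). This was 1 of 6 subunits, against 12.9% of all tested genes, 6.34% in this direction. The call was close to the threshold. It was lost in 14 of the 22 fits that left out 1 library (male replicates 1, 2, 5, 7, 8, 9 and 10, female replicates 1, 2, 3, 4, 5, 8 and 11), with adjusted p-values up to 0.118 and slopes of -0.79 to -1.36 over all 22. With a pseudocount of 0.1 the slope was -1.92 (adjusted p = 0.0460). It was also lost without male replicates 5 and 11 together (slope -1.39, adjusted p = 0.0893) and without the 4 libraries low in trunk Hox (-0.76, adjusted p = 0.132). Both scores come from the same libraries, and markers of the other kind moved against each: 4 of 6 large-diameter markers passed downwards with the small-diameter score. So did 2 of 8 satellite glia markers and Hba-a1 (-1.69), and 1 of 7 nerve injury genes, Gal, passed upwards (2.41).

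Gabra3 had a slope of -0.92 on the small-diameter score (interval -1.76 to -0.07; limma adjusted p = 0.140). It passed without male replicate 11, the library with the lowest score (slope -1.60, adjusted p = 0.0466), and without male replicates 5 and 11 (-2.09, adjusted p = 0.0202). Gabra5 (-0.48), Gabrb2 (-0.49), Gabrb1 (-0.040) and Gabra2 (0.15) did not pass.

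Against a score of 7 nerve injury genes (Atf3, Sprr1a, Gal, Npy, Sox11, Gap43 and Gadd45a), which also varied between the naïve libraries (2.98 to 6.54), none of the subunits passed (0 of 6 by limma, 1 at an unadjusted p under 0.05, against 0.256% and 9.25% of all tested genes). Gabra3 was that one, with a slope of -0.46 (interval -0.76 to -0.15; unadjusted p = 0.0049, adjusted p = 0.288). The 3 naïve libraries with the highest scores, male replicate 4 (6.54), female replicate 9 (6.49) and female replicate 5 (6.48), had 0.527, 5.24 and 2.72 FPKM of Gabra3. Next in score were male replicate 8 (5.85) and female replicate 3 (5.41), with 0.296 and 2.01 FPKM. Of all these libraries only female replicate 9 lay above the naïve median of 4.69.

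**Figure D5:**
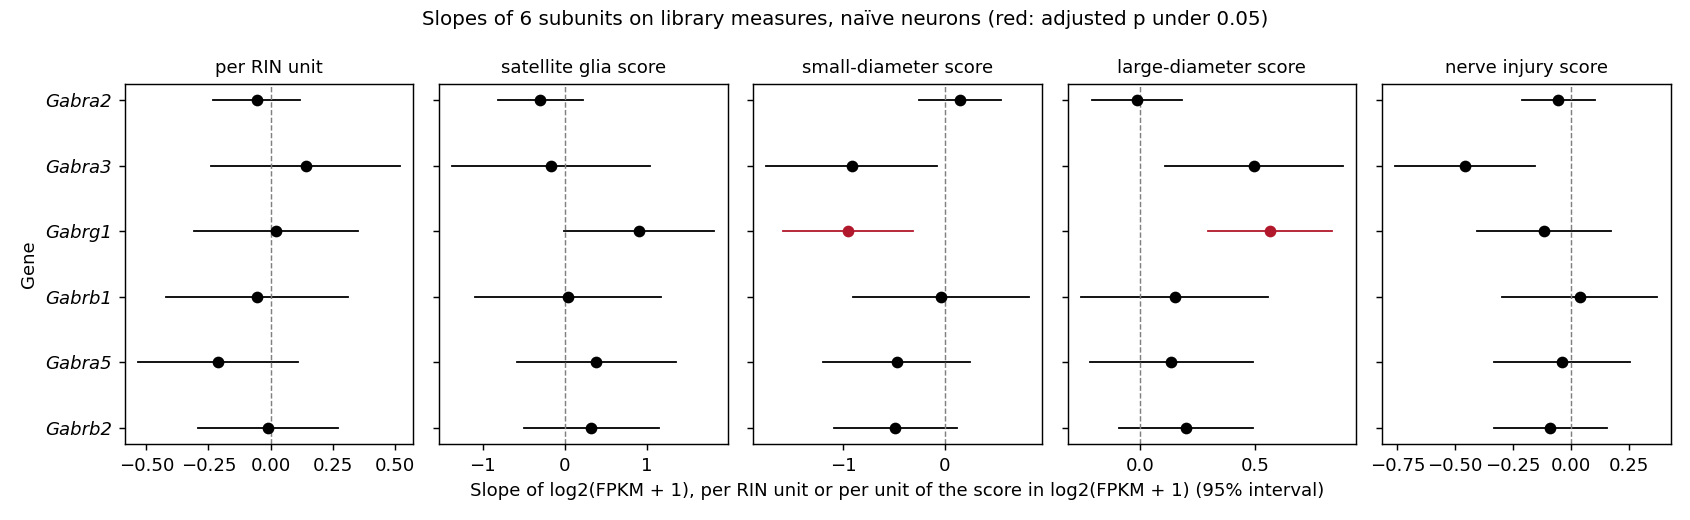
Slopes of 6 subunits on RIN and on 4 marker scores over the naïve libraries, in log2(FPKM + 1) per RIN unit or per unit of score, with 95% intervals from limma. Red marks an adjusted p under 0.05, which Gabrg1 alone reached, upwards with the large-diameter score (0.57) and downwards with the small-diameter score (-0.95).

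In the 4 libraries with trunk Hox genes near 0 (male replicates 2 and 10, female replicates 2 and 11), Gabra3 had 9.34, 6.08, 8.72 and 12.3 FPKM, against 0.296 to 8.33 in the other 18. Gabra5 had 4.41, 3.18, 3.44 and 1.87, against 0 to 3.67. Gabrg1 had 3.86, 2.33, 5.94 and 3.23, against 0 to 6.87. For Gabra3 only male replicate 10 fell within the range of the other 18. For Gabra5 all but male replicate 2 did, and for Gabrg1 all 4 did. All 4 lay above the naïve median for each of these genes (4.69, 0.770 and 1.62 FPKM). Gabrb1 differed in this: it had 3.06, 3.83, 0.507 and 0.533 FPKM, with the female libraries below its naïve median of 1.82, and a mean of 1.98 against 2.04 in the other 18. Gabrb2 had 0.493, 1.48, 4.63 and 2.65, a mean of 2.31 against 0.635, and only male replicate 2 was no higher than its naïve median of 0.494. Without them the naïve means were 3.84, 0.996 and 1.90 FPKM for Gabra3, Gabra5 and Gabrg1, and that of Gabra2 was 21.5. Gabra2 had 25.6, 20.6, 27.8 and 23.5 in the 4, on both sides of its naïve median of 22.6. The groups were not tested against each other, since the labels do not define them.

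Within the family, 20 of the 21 pairs of subunits had a Spearman correlation above 0 over the 22 naïve libraries, with a median of 0.27. The share of positive correlations over pairs of all tested genes was not computed, so nothing particular to the subunits follows from this count. The points share library, depth and makeup, and the correlations are a description. The highest was that of Gabrb2 with Gabrg1 (rho 0.66, Pearson's r 0.74), followed by Gabrg1 with Gabrg3 (0.62 and 0.51) and Gabra2 with Gabra3 (0.59 and 0.52). Over the 18 libraries with trunk Hox genes the order changed: Gabrb1 with Gabrg3 was highest (rho 0.65, Pearson's r 0.23), and Gabrb2 with Gabrg1 (0.58 and 0.73) came after Gabra2 with Gabra3 (0.60 and 0.49) and Gabrg1 with Gabrg3 (0.60 and 0.53). Gabra2 and Gabrb1, of the same cluster on chromosome 5, had a rho of -0.031 over the 22 libraries.

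The genes whose pattern over the 22 naïve libraries was most like that of a subunit were named by Spearman's rho on log2(FPKM + 1). For Gabrg1 they were Bcat1, a cytosolic aminotransferase of branched-chain amino acids (0.84), Calb1, the calcium-binding protein calbindin (0.84), and A330050F15Rik (0.81). For Gabra3 they were the cadherin gene Cdh9 (0.89), the solute transporter gene Slc51a (0.86) and Nell2, which encodes a secreted neuronal protein (0.85). For Gabra2 they were the translation initiation factor gene Eif4g3 (0.85), Ogfrl1 (0.84) and the F-box gene Fbxo11 (0.83).

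For Gabrb2 the closest were Cops8, a subunit of the COP9 signalosome (0.90), the synaptic release regulator Cplx1 (0.87) and Fstl4 (0.87). For Gabra5 they were Ccdc106 (0.85), the diacylglycerol kinase gene Dgkk (0.83) and Acin1 (0.81). Gabrb1 had the weakest partners, the receptor gene Lrp3 (0.76), the glutathione transferase gene Gstm2 (0.70) and Nudt17 (0.70). No p is given for these values, which are the highest of 12893 genes.

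Of the other genes of GABA signalling, those that make and load the transmitter were near 0, and those that receive and clear it were present. Gad1 and Gad2, which make GABA from glutamate, had 0.226 and 0.0153 FPKM in naïve neurons and 0.415 and 0.0393 after SNL. Slc32a1, which loads GABA into vesicles, was listed at 0 in all 28 libraries. Abat, which breaks GABA down, had 21.2 ± 8.62 (SD, n = 22) and 26.0 ± 8.52 (n = 6), and Aldh5a1, which acts after it, had 1.09 and 0.835. Of the GABA uptake carriers, Slc6a13 was highest, at 0.921 and 1.12.

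The GABA-B receptor, which acts through G proteins, was represented by Gabbr1 at 20.2 ± 3.78 FPKM in naïve neurons (SD, n = 22) and 29.6 ± 8.08 after SNL (n = 6), and by Gabbr2 at 9.51 ± 2.77 and 10.7 ± 2.43. Gabbr1 was thus at a level near that of Gabra2 in naïve neurons, on the FPKM scale. Of the trafficking proteins, the ATG8-family genes Gabarap, Gabarapl1 and Gabarapl2 were highest in naïve neurons, at 403, 360 and 262, but they also serve autophagy. Lhfpl4, which brings GABA-A receptors to synapses, had 29.2, and the scaffold gene Gphn had 12.7.

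Slc12a2, the carrier that brings chloride into sensory neurons and so makes GABA depolarizing, had 5.68 ± 2.08 FPKM in naïve neurons (SD, n = 22) and 4.44 ± 1.57 after SNL (n = 6). Slc12a5, which removes chloride from mature central neurons, had 0.0353 and 0.0165. None of the tested genes of these roles passed between the sexes in either experiment (0 by limma), and at an unadjusted p under 0.05 there were 2 trafficking genes of 10 in naïve neurons and 1 of 10 after SNL, against 8.29% and 3.69% of all tested genes. Gabarapl2 was the 1 of 10 tested trafficking genes that passed with the small-diameter score (slope -0.47, limma adjusted p = 0.0259), against 12.9% of all tested genes, so this count was near the background. Of the 12 other subunit genes, 3 passed the expression filter in naïve neurons and 4 after SNL, and none of these passed between the sexes by limma (1 in naïve neurons and 0 after SNL at an unadjusted p under 0.05). Their summed FPKM was 15.1 to 82.6 in naïve libraries and 43.6 to 61.0 after SNL, against 13.3 to 51.2 and 14.1 to 26.0 for the 7 subunits described here.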

How the data were processed

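RNA-seq libraries of purified mouse sensory neurons were used, 22 naïve and 6 after SNL, with groups taken from the labels. The authors aligned reads to mm10 with STAR, keeping reads with 1 match, and computed the deposited FPKM with Cufflinks. Their tables of DESeq2 results hold the mean of counts divided by size factors, a normalized signal that the authors deposited as a pooled mean, beside fold changes and p-values that were not used. RIN, a score of RNA integrity from the Bioanalyser, and read numbers were taken from a deposited table of the authors. Tool versions and the gene annotation are not stated in the sources used here.

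FPKM values were analysed as deposited with limma 3.58.1 in R 4.3.3, with an intensity trend, a pseudocount of 1 and Benjamini-Hochberg adjustment over all tested genes, each table alone. The adjusted threshold was 0.05. FPKM keeps no read counts, so values carry no counting interval, and no count model was fitted. Fits were checked on simulated data. Libraries are pools of 2 mice, and p-values measure the spread between these pools. Male replicate 8 of the naïve libraries has no RIN and was left out of fits with RIN.

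The members, gene lists and tests were chosen with earlier results of these data known. The slopes on diameter and injury scores, and the scores as covariates, were added after the levels were seen. All 7 subunits are named, with the 3 most abundant genes of each signalling role, every one past a threshold and, for each tested subunit, the 3 genes of most similar pattern. Results of some genes that this rule takes are not reported here. Alternatives covered the pseudocount, the expression filter, the scaling, the intensity trend, covariates and the libraries included. Replicate numbers were checked for pairing: same-numbered libraries of the 2 sexes deviated together (correlation over 0.1) in 1 of 11 naïve pairs and 2 of 3 SNL pairs. The naïve numbers thus showed little pairing, while 3 pairs are too few to decide it after SNL. The main fits used no pairing. The paper describes processing in sex-matched or sex-controlled batches, and the labels used here name no batch.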

Additional observations from a re-analysis of the deposited data

How the results depend on the processing

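No subunit passed between the sexes under any alternative in either experiment. The number of all tested genes called between the sexes was 7 in naïve neurons (7 to 8 without each library, 5 with the replicate number as a block) and 5 after SNL (5 to 13 without each library, 8 when male replicate 1 was left out and 13 for male replicate 2 or female replicate 1). After SNL it was 0 with the replicate block and 0 with no filter. A library of 1 sex was closest to the same-numbered library of the other in 1 of 11 naïve and 1 of 3 SNL cases. Whether the block shares more than a number after SNL cannot be told from 3 pairs. Leaving out single libraries turned the sign of Gabra2 and Gabrb1 only. Without each library, Gabra2 ran from -0.17 to 0.010 and Gabrb1 from -0.18 to 0.11 in naïve neurons, and from -0.00376 to 0.30 and -0.23 to 0.68 after SNL. Gabrb1 was also above 0 in naïve neurons with quantile normalization (0.13), median-of-ratios scaling (6.5e-05), RIN (0.048) or the large-diameter score (0.045) as a covariate, and was -0.26 after SNL with a pseudocount of 0.1.

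For slopes, the numbers of genes called were 9 for RIN (51 with a pseudocount of 0.1, 14 with quantile normalization, 0 without the 2 libraries farthest from the median and 0 without the 4 low in trunk Hox), 66 for satellite glia (16 and 30 in those last settings), 1667 for the small-diameter score (373 without the 2 farthest, 718 to 1857 without each library, lowest without male replicate 11, and 1001 without male replicate 5), 798 for the large-diameter score (436 and 356, and 492 to 1088 without each library, with 492 without female replicate 3 and 526 without male replicate 11) and 33 for nerve injury (19 with a pseudocount of 0.1, then 9 and 18).

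Some slopes that did not pass turned sign. With quantile normalization these were Gabrg1 on RIN (-0.065), Gabrb1 on glia (-0.11) and on the small-diameter score (0.12), and Gabra2 on the large-diameter score (0.023). With a pseudocount of 0.1 they were Gabrb2 on RIN (0.026) and Gabrb1 on injury (-0.00432). Without the 2 farthest libraries they were Gabrg1 on RIN (-0.55), Gabra3 (0.31) and Gabrb1 (-0.16) on glia, Gabrb1 (0.030) and Gabra2 (-0.57) on the small-diameter score, and Gabra2 on the large-diameter score (0.026). Without the 4 libraries low in trunk Hox they were Gabrb1 on glia (-0.095), Gabra5 on the large-diameter score (-0.039), and Gabra5 (0.073) and Gabrb2 (0.032) on injury. Without each library, Gabra2 ran from -0.35 to 0.25 and Gabrb1 from -0.34 to 0.26 on the small-diameter score, and Gabra2 from -0.050 to 0.14 on the large-diameter score. Gabrg1 minus Gabrb1 in level was -0.070 without the 4 libraries low in trunk Hox and -0.38 in males alone. The cause of these changes was not tested. Depth per gene is unknown from FPKM, which limits the low subunits.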
